A study of Mus musculus with 5 samples.

Results

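Transcripts of 6 circadian clock genes, Arntl, Dbp, Nr1d1, Tef, Hlf and Ciart, were measured in the left ventricle of diabetic and non-diabetic mice. The genes are named members of the clock, chosen with earlier results of these data known, so their p-values are not those of an independent choice. All cassette exon events of these genes were taken, where a cassette exon is an exon that a transcript either holds or skips and an event is that exon with its neighbours. This gave 7 events of 6 genes, out of 6331 events of 4145 genes that were present in all 6 tables of the authors. Dbp had 2 events and each of the other genes had 1.

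C57BL/6 mice received streptozotocin at 70 mg/kg once a day for 5 days from 8 weeks of age (STZ, 3 libraries), and others received citrate buffer on the same schedule (Control, 2 libraries). Both groups were 12 weeks old. Streptozotocin kills beta cells, which make insulin, and is a common way to model type 1 diabetes in mice, so the agent acts on the whole animal and not on the heart alone. The library codes in the tables match no sample title, so the codes were assigned to STZ and Control from the group sizes alone, and all directions below rest on that. The labels do not state that each library is a separate animal, so p-values measure the spread between these libraries, which may be technical.

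The circadian clock is a loop of transcription factors that runs in nearly every cell. BMAL1, the product of Arntl, pairs with CLOCK, binds E-box sequences and switches on the Per, Cry, Nr1d1, Ciart and Dbp genes, whose products act back on the loop or carry its rhythm to output genes. REV-ERB alpha, the product of Nr1d1, represses Arntl through ROR elements, and Dbp, Tef and Hlf encode related activators that bind D-boxes. In heart muscle the clock is known to set daily rhythms of metabolism and of ion channels, and in most tissues Arntl RNA peaks when Dbp RNA is at its trough. The labels give no hour of tissue collection and there was 1 age, so a shift of the daily rhythm, a difference in the hour of collection and a change of its mean level cannot be told apart. The library codes also fall into naming series that split as the groups do. A difference between these series cannot be told apart from the treatment in any result below.

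In these data Arntl, the driver of the loop, was higher in STZ ventricles, while Dbp, an output gene that peaks at the opposite time of day, was lower. Nr1d1 RNA did not pass the test in level, but its transcripts skipped a coding exon more often in STZ. Tef passed the test as lower when all reads in its event were counted, and did not when reads that fit neither isoform were left out. Hlf and Ciart did not pass.

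Exon sequences of Nr1d1, Dbp and Arntl are given below, followed by promoter windows of Arntl, Ciart and Dbp. No result here rests on the promoter windows. The exon sequences are from the GENCODE M21 annotation of the GRCm38 mouse genome, matched to the events by exon and intron lengths, and are shown to identify what is skipped. Capitals mark the cassette exon and lower case marks 20 bases of the exons on either side.
Nr1d1 89 nt exon: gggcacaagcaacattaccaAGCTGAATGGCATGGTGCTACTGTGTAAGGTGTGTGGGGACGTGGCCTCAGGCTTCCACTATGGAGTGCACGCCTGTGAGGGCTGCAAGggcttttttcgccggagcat
Dbp 111 nt exon: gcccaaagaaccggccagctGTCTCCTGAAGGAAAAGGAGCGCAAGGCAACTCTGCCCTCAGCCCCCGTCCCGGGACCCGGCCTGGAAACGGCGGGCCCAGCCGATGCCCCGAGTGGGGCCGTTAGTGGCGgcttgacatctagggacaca
Arntl 39 nt exon: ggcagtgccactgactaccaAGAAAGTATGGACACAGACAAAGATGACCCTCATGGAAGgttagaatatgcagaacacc

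The Nr1d1 exon lies at chr11:98632751-98632839 on the minus strand in mm9, the build of the authors' tables. It is exon 3 of the 8 exons of Nr1d1-201 and lies wholly in coding sequence. This part of the gene encodes the first zinc finger of the DNA-binding domain of REV-ERB alpha. Its 89 nt are not a multiple of 3, and no transcript of the annotation skips it. The Dbp exon lies at chr7:52961976-52962086 on the plus strand and is exon 2 of the 4 exons of Dbp-203. A longer form of the same exon, 411 nt from the same first base to chr7:52961976-52962386, is exon 2 of 4 in Dbp-201. Both forms are coding and multiples of 3, and the transcript Dbp-204 skips them. The Arntl exon lies at chr7:120426771-120426809 on the plus strand, is exon 6 of 20 in Arntl-201, and is coding and a multiple of 3.

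The E-box, the ROR element and the D-box were searched on both strands of promoter windows, from 250 bases before to 50 bases after each RefSeq start on GRCm38.p6. The E-box was CACGTG, the ROR element was TAGGTCA or TGGGTCA, and the D-box was any of TTATGTAA, TTATGCAA, TTACGTAA, TTACGCAA and TTACATAA. Among all 32851 windows, 7.15% held the E-box, 6.45% the ROR element and 1.94% the D-box. The Ciart window and both Tef windows held an E-box, 1 of the 2 Arntl windows held a ROR element, and the windows of Dbp, Nr1d1 and Hlf held none of these words. A match describes the letters and not a bound site. A window without a match says nothing of sequence outside that window. The window of Arntl that holds the ROR element (chr7:113207261-113207560, plus strand), the Ciart window (chr3:95882179-95882478, minus strand) and the Dbp window (chr7:45704997-45705296, plus strand) are shown because they differ in these words, and capitals mark the motifs.
Arntl promoter: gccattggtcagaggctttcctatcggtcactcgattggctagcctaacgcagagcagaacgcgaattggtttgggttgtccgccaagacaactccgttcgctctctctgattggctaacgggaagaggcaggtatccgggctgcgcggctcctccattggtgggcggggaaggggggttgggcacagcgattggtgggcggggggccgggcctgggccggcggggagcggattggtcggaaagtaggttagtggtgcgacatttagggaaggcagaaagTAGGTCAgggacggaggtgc
Ciart promoter: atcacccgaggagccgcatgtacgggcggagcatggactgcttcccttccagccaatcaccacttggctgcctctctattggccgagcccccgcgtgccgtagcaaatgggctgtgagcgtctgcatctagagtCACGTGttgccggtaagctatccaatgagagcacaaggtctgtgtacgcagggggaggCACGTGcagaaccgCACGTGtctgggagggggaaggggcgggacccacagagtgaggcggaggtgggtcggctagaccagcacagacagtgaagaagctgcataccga
Dbp promoter: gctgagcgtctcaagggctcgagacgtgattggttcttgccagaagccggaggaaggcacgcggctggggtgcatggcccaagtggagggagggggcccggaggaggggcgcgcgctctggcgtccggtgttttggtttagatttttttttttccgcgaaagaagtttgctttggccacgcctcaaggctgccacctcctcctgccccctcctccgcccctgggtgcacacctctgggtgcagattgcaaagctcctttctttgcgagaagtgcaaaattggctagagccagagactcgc

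The level of a gene was measured as event reads, the reads that the authors' tables place in its events in 4 classes, per 1000000 event reads of the library (RPM). The 4 classes are reads that fit only the isoform with the exon, only the isoform without it, both isoforms, or neither isoform. The libraries held 14913419, 14534868 and 12692236 event reads in STZ and 17154734 and 20963751 in Control. This is not expression per transcript length, so levels are compared between libraries and not between genes. In bulk tissue, fewer cells of a type and less RNA per cell cannot be told apart.

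The tissue was checked by markers. Ttn, the giant spring protein of the sarcomere, had a mean of 14136 RPM in STZ and 13765 in Control, and Tnnt2, cardiac troponin T, had 25442 in STZ and 25647 in Control. Neither passed with all reads, but Tnnt2 passed as higher with reads that fit at least 1 isoform (limma, log2 fold change 0.52, adjusted p = 0.0062). Myl4, an atrial light chain, had 39.8, 5.44 and 6.93 in STZ against 4.78 and 3.24 in Control, so STZ A stood apart from the other 4 libraries. The 4 cardiomyocyte markers with an event, of 10 listed, summed to 53143 to 64373 in STZ and 97977 to 99157 in Control. Most of that gap lay in Pln, which restrains the calcium pump and passed as lower, at 19008 in STZ against 59110 in Control. Ryr2 also passed as lower. Pecam1, the only endothelial marker of 6 with an event, ranged from 3107 to 5332 in STZ against 1396 to 1548 in Control. Among 6 fibroblast markers Postn alone had an event, and it passed as lower with all reads but not with median-of-ratios scaling or with reads that fit an isoform. Of the 2 smooth muscle markers with an event Myh11 was higher and Smtn lower, Smtn by a log2 fold change of -1.87 with all reads and -0.52 with reads that fit at least 1 isoform. Of the 3 leukocyte markers Ptprc and Cd74 were lower, and Cd68 did not pass in RPM but passed as higher with median-of-ratios scaling (limma, log2 fold change 1.08, adjusted p = 0.0201). The erythrocyte and adipocyte markers had no event. No marker with an event was at 0 in any library. The part of such differences in the clock results was not tested.

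Arntl had 45.5, 21.3 and 23.8 RPM in STZ A, B and C, against 7.00 and 2.77 in Control A and B. All 3 STZ libraries lay above both Control libraries. The mean was 30.2 ± 13.3 in STZ (SD, n = 3) and 4.88 ± 2.99 in Control (SD, n = 2), and the log2 fold change was 2.55 with a standard error of 0.43 (limma, adjusted p = 0.00234). Arntl had the 36th largest rise of 4145 genes. Without STZ A, the library with the high Myl4 level, the log2 fold change was 2.22 (limma, adjusted p = 0.00132).

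Dbp, whose protein activates genes with D-boxes, had 95.5, 122 and 168 RPM in the 3 STZ libraries, against 818 and 1146 in the 2 Control libraries. The groups did not overlap, and no STZ by Control pair of 6 was higher in STZ. The mean was 128 ± 36.5 in STZ and 982 ± 232 in Control, 7.64-fold lower in STZ, with a log2 fold change of -2.95 and a standard error of 0.25 (limma, adjusted p = 0.000171). The 2 Dbp events overlap and hold the same reads, 712, 888 and 1064 reads in STZ and 7014 and 12012 in Control for each event, so the summed values count them again. With the event of most reads alone the log2 fold change was -2.94. Dbp had the 20th largest fall.

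These counts stand against a wide background. Of the 4145 genes, 55.1% passed the test, 18.8% as higher and 36.3% as lower in STZ, and in 74.2% the groups did not overlap, with STZ above Control in 27% and below it in 47.3%. Of the 6 clock genes 3 passed, Arntl as higher and Dbp and Tef as lower, and the same 3 had groups that did not overlap. The median log2 fold change over all genes was -0.25. With libraries scaled by median of ratios instead, 55% of genes passed, the calls split into 1142 higher and 1137 lower (27.6% and 27.4% of genes), against 780 higher and 1503 lower in RPM, and the log2 fold changes were 2.78 for Arntl, -2.70 for Dbp and -1.49 for Tef. A change of at least 4-fold was rarer, at 6.06% of genes, and the estimates of Arntl and Dbp both exceeded it. The confidence interval of Arntl, 1.53 to 3.57 on the log2 scale, reached below 4-fold. Without Control B its log2 fold change was 1.95, just under 4-fold. The clock genes were chosen with earlier results of these data known, so their place against this share is a description and not a test. With reads that fit at least 1 isoform, Arntl had a log2 fold change of 2.19 (limma, adjusted p = 0.00183) and Dbp of -3.26 (limma, adjusted p = 6.24e-05), where 49.9% of genes passed, 19.3% as higher and 30.6% as lower.

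**Figure D1:**
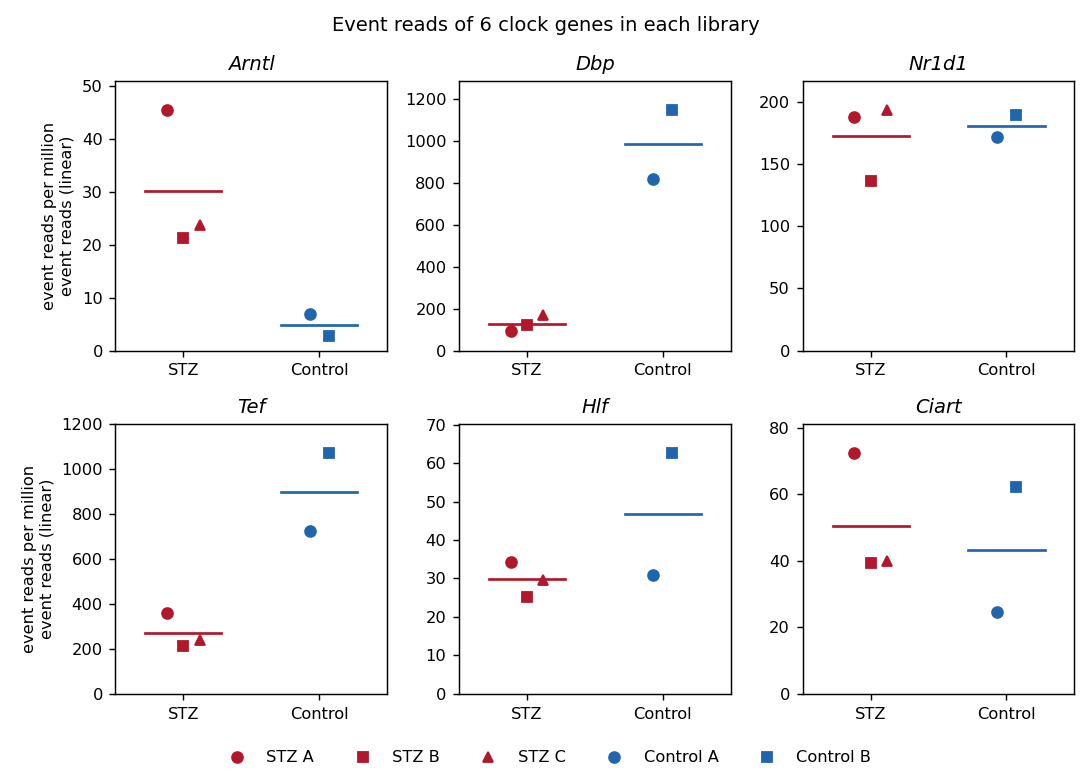
Event reads of each clock gene in RPM (linear axis from 0) in each library, with STZ left of Control, 1 point per library and a line at the group mean. Arntl lay higher in all 3 STZ libraries than in both Control libraries, Dbp and Tef lay lower, and Nr1d1, Hlf and Ciart overlapped.

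**Figure D2:**
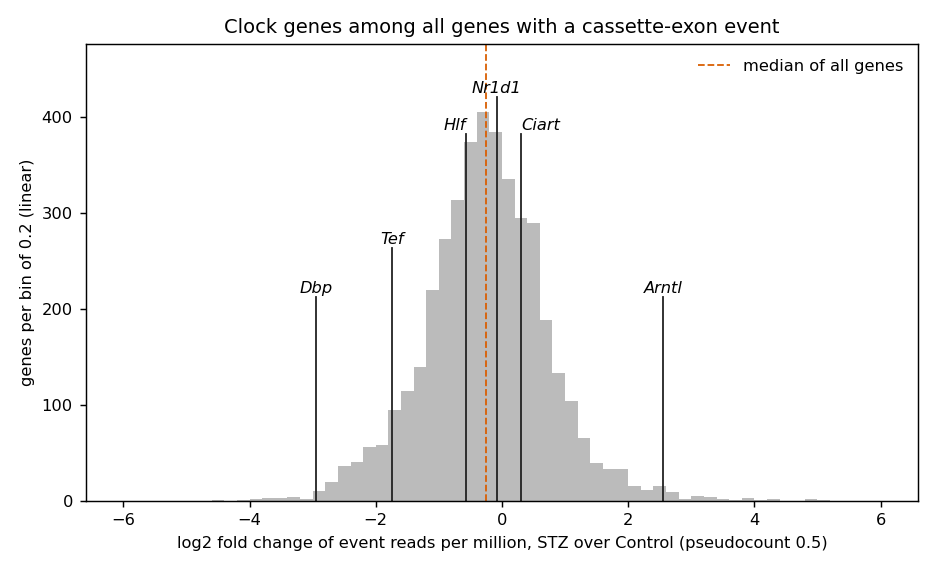
Log2 fold change of STZ over Control for all 4145 genes as a histogram, with the 6 clock genes marked by lines. Arntl at 2.55 and Dbp at -2.95 lie in the tails, and the median of all genes is -0.25.

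Nr1d1, the repressor of Arntl, had 188, 136 and 194 RPM in STZ, against 172 and 190 in Control. The groups overlapped. The log2 fold change was -0.08 with a 95% interval of -0.50 to 0.34 (limma, adjusted p = 0.717), so the interval excludes a change of the size seen in Arntl or Dbp. The sign turned with other settings: it was 0.17 with median-of-ratios scaling and 0.08 without STZ B. With reads that tell the isoforms apart the values were 230.5, 194 and 261 RPM in STZ and 284 and 292 in Control. There the log2 fold change was -0.34, with a 95% interval of -0.72 to 0.03 (limma, adjusted p = 0.113).

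Inclusion of the 89 nt Nr1d1 exon was given as Psi, the estimated fraction of transcripts that hold the exon, as deposited by the authors. Psi is the authors' estimate and not a share of reads, and it differs in size from the share of skipping reads given below. Psi was 0.72, 0.71 and 0.76 in STZ, against 0.94 and 0.98 in Control, and the groups did not overlap. Its mean was 0.73 ± 0.0265 in STZ and 0.96 ± 0.0283 in Control, a difference of -0.23. On the logit scale the difference was -2.32 with a standard error of 0.40 (limma, adjusted p = 0.0413). For comparison, 15% of 4769 exons passed this test, 10.1% with lower and 4.84% with higher Psi in STZ, and in 42.9% the groups did not overlap, in 28.8% with STZ below Control. Of the 7 exons of the clock genes this was the 1 that passed. Without STZ A, B and C in turn the difference on the logit scale was -2.30, -2.27 and -2.40, close to that of all libraries, while the adjusted p was 0.115, 0.128 and 0.119 in limma with fewer libraries. Without Control A the difference was -2.89 and without Control B it was -1.75. Each of these fits leaves a single Control library, so the spread comes from the STZ libraries alone and no pass is read from them.

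Reads that fit only the isoform with the exon numbered 649, 517 and 624 in STZ and 920 and 1217 in Control, and reads that fit both numbered 1348, 828 and 1012 in STZ and 1147 and 1660 in Control. Reads that fit only the isoform without the exon numbered 42, 49 and 39 in STZ and 4 and 2 in Control. The skipping class is thus small in every library and separates the groups. As a share of the reads that tell the isoforms apart they were 6.08% (95% exact binomial interval 4.42 to 8.13), 8.66% (6.47 to 11.3) and 5.88% (4.22 to 7.95) in STZ. In Control the share was 0.433% (0.118 to 1.10) and 0.164% (0.0199 to 0.591). Every STZ interval lay above both Control intervals. These intervals cover counting error only. In a quasi-binomial model of the same reads the adjusted p was 3.13e-05, where 27.5% of exons passed. The authors' deposited table gave a Control minus STZ difference of 0.18 to 0.27 over the 6 pairs, which share libraries, with a Bayes factor of at least 1.3e+49, and 3.22% of events reached a difference of 0.20 with a Bayes factor of 10 in all 6. The Nr1d1 exon did not, since the difference was 0.18 for STZ C against Control A.

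**Figure D3:**
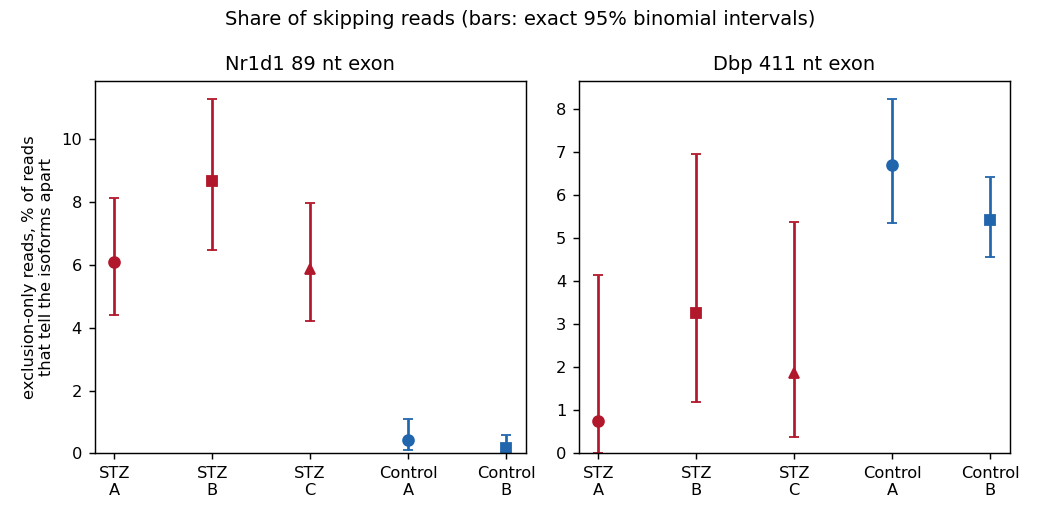
Reads of the skipping isoform as a percentage of the reads that tell the isoforms apart, for the Nr1d1 exon and the 411 nt Dbp exon, with 1 point per library, STZ left of Control, and bars for exact 95% binomial intervals. The Nr1d1 exon was skipped in 5.88 to 8.66% of such reads in STZ and 0.164 to 0.433% in Control, and the Dbp exon in 0.758 to 3.26% in STZ and 5.44 to 6.70% in Control.

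The Dbp exon moved the other way in Psi without passing the test. The 111 nt form had Psi 0.94, 0.77 and 0.86 in STZ, against 0.54 and 0.64 in Control (limma, adjusted p = 0.158). The 411 nt form had 0.90, 0.87 and 0.82 in STZ, against 0.64 and 0.70 in Control (limma, adjusted p = 0.0634). Neither pair of groups overlapped, as was so for 14.1% of exons with STZ above Control. For the 411 nt form, reads of the skipping isoform alone were 1, 6 and 3 in STZ and 82 and 132 in Control, beside 131, 178 and 157 of the including isoform in STZ and 1142 and 2295 in Control. The skipping share was 0.758%, 3.26% and 1.88% in STZ and 6.70% and 5.44% in Control. The intervals of STZ B and C overlap those of Control, and STZ A, at 0.0192 to 4.15%, lies below them. In the quasi-binomial model the adjusted p was 0.0311 for the 411 nt form and 0.0729 for the 111 nt form. In the authors' deposited table the Control minus STZ difference was -0.26 to -0.12 for the 411 nt form with a Bayes factor from 0.63 to 9.2e+17, and -0.40 to -0.13 for the 111 nt form. Both events draw on the same reads, so they are 1 observation.

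The Arntl exon had Psi 0.97, 0.93 and 0.99 in STZ against 0.92 and 0.89 in Control (limma, adjusted p = 0.324). No read fit only the isoform without the exon in any library, so differences in its Psi are not differences in observed skipping. Most reads of the event fit neither isoform, 79.8 ± 4.76% in STZ and 76.3 ± 0.569% in Control. Given 92, 57 and 70 informative reads in STZ and 26 and 14 in Control, 0 reads allow a skipping share of up to 3.26%, 5.26% and 4.29% in STZ and 11.5% and 21.4% in Control.

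Ciart, whose protein CHRONO represses the CLOCK and BMAL1 pair, had 72.4, 39.3 and 39.9 RPM in STZ, against 24.6 and 62.1 in Control. The groups overlapped and the Control libraries stood apart from each other. The log2 fold change was 0.30 with a 95% interval of -0.69 to 1.29 (limma, adjusted p = 0.561), and without Control A it was -0.36. Its 409 nt exon, at chr3:95685104-95685512 on the minus strand and exon 2 of 6 in Ciart-201, had Psi 0.92, 0.91 and 0.84 in STZ and 0.83 and 0.96 in Control, with 0 reads of the skipping isoform in every library (limma, adjusted p = 0.884). Psi of 0.83 in Control A thus stood beside 0 skipping reads, so differences in its Psi are not differences in observed skipping. The event overlaps the antisense gene C920021L13Rik, and the sources used here do not state whether the reads were assigned by strand.

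Tef, which encodes a D-box activator related to Dbp, had 362, 212 and 238 RPM in STZ, against 727 and 1072 in Control. The groups did not overlap, and the log2 fold change was -1.74 with a standard error of 0.26 (limma, adjusted p = 0.00136), the 257th largest fall. With reads that fit at least 1 isoform the values were 246, 161 and 166 RPM in STZ and 150 and 250 in Control. The log2 fold change was then -0.05 with a 95% interval of -0.64 to 0.55 (limma, adjusted p = 0.892). With reads that tell the isoforms apart it was 0.06, where 34% of genes passed as lower. The fall lay in reads that fit neither isoform, with 3538, 1846 and 1904 reads in STZ and 11094 and 19617 in Control, or a log2 fold change of -2.29 in RPM (limma, adjusted p = 0.000325), where 40.1% of genes passed as lower. These made up 62.8 ± 2.76% of the event's reads in STZ and 88.1 ± 1.15% in Control. The difference of -25.3 percentage points was the 78th largest fall of 6331 events, where the median difference was -0.297. The tables do not say where in the event such reads lie.

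The Tef exon of 117 nt, at chr15:81650969-81651085 on the plus strand, was skipped in nearly all transcripts, with Psi 0.01 in each STZ library and 0.02 and 0.01 in Control (limma, adjusted p = 0.412). Reads of the including isoform alone numbered 13, 14 and 9 in STZ and 18 and 27 in Control, beside 481, 348 and 329 of the skipping isoform in STZ and 318 and 698 in Control. The files give this event the symbol Tef. Its skipping junction is held by Tef-201, and the exon itself was not matched to the annotation.

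Hlf, the third D-box activator, had 34.3, 25.2 and 29.7 RPM in STZ, against 30.8 and 62.6 in Control. The STZ libraries overlapped Control A, and Control B was above all of them. The log2 fold change was -0.57 with a 95% interval of -1.28 to 0.14 (limma, adjusted p = 0.144). Without Control A it was -1.07 and without Control B it was -0.06. Its reads that fit neither isoform were 41.0% of the event in STZ and 52.9% in Control. In a count added after seeing the data, their own log2 fold change was -0.99 (limma, adjusted p = 0.0301). In that count 40.1% of genes passed as lower, so nothing particular to Hlf is read from it. The 75 nt exon of Hlf, at chr11:90231605-90231679 on the minus strand, holds 0 coding bases as exon 3 of 5 in Hlf-202 and had Psi of at most 0.01 in every library. It had 0 reads of the including isoform alone in each STZ library and 0 and 1 in Control.

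**Figure D4:**
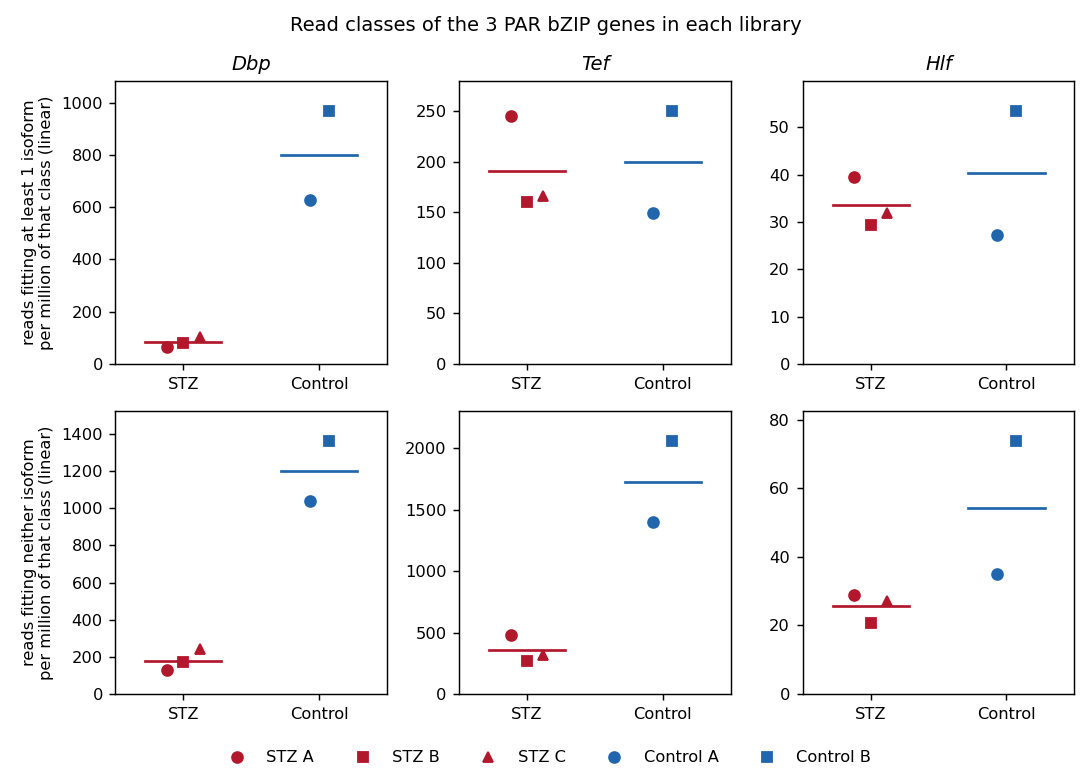
Reads of Dbp, Tef and Hlf that fit at least 1 isoform (top row) and neither isoform (bottom row), each in RPM of its own class on a linear axis from 0, with 1 point per library, a line at the group mean and STZ left of Control. For Tef the groups overlap in the top row and separate in the bottom row, at 269 to 483 RPM in STZ and 1400 and 2058 in Control.

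**Figure D5:**
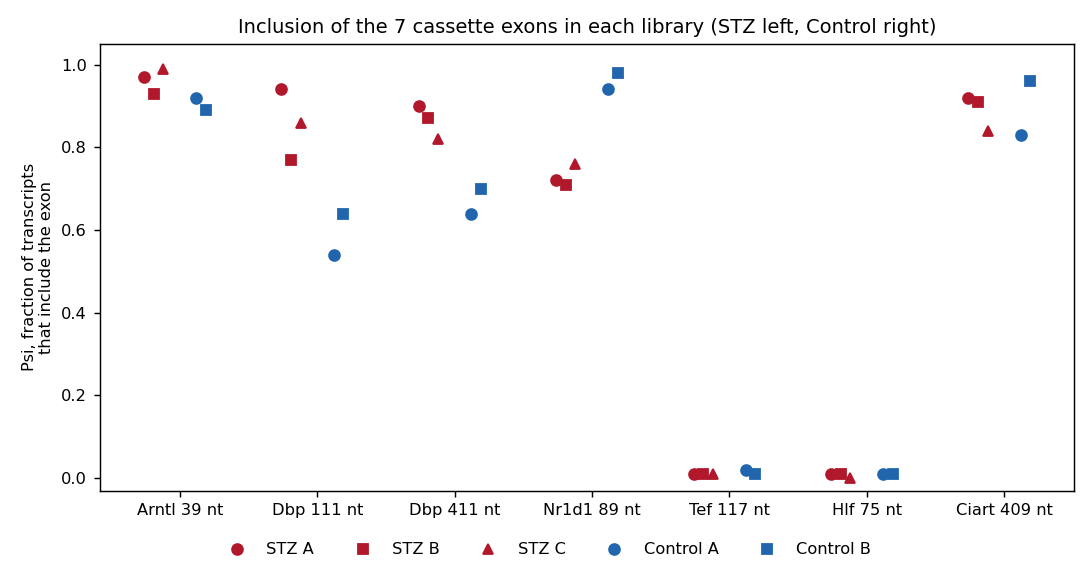
Psi of the 7 exons, as deposited by the authors, with 1 point per library and STZ left of Control. The Nr1d1 exon lay at 0.71 to 0.76 in STZ and at 0.94 and 0.98 in Control.

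Other parts of the clock were sparsely covered. Of 17 genes of the core loop outside the 6, only Rora, an activator that competes with REV-ERB alpha, had an event, at 14.2 ± 3.41 RPM in STZ and 19.2 ± 3.00 in Control (limma, log2 fold change -0.44, adjusted p = 0.149). The other 16 genes, among them Clock, Per1 and Cry1, were not analysed here. Of 18 kinases and ubiquitin ligases of clock proteins, 10 had an event, of which 3 passed as higher and 3 as lower, beside 18.8% and 36.3% of all genes. With reads that fit at least 1 isoform, 1 passed as higher and 4 as lower. Csnk1d, which phosphorylates PER proteins, was higher at 934 ± 186 in STZ and 433 ± 5.69 in Control, and Prkaa2, a catalytic subunit of AMP-activated kinase, was lower at 65.5 ± 36.3 in STZ and 186 ± 31.3 in Control. Btrc, a ubiquitin ligase subunit that acts on PER proteins, was higher with all reads (log2 fold change 0.68) and lower with reads that fit at least 1 isoform (-1.65). Prkaa1, a catalytic subunit of the same kinase, was higher with all reads (0.59) and did not pass with reads that fit at least 1 isoform (limma, log2 fold change -0.06, adjusted p = 0.847). The median log2 fold change of the 10 genes was -0.07 with all reads, against -0.25 over all genes, and -0.54 with reads that fit at least 1 isoform, against -0.16 over all genes, so its place relative to all genes turned with the reads counted.

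Of 20 clock output genes, 5 had an event, and 2 passed as higher and 3 as lower. Since 55.1% of all genes passed, 18.8% as higher and 36.3% as lower, nothing particular to these genes is read from that count. Usp2, a deubiquitinase whose RNA cycles in many tissues, had 28.4, 18.9 and 19.5 RPM in STZ, against 102 and 128 in Control (limma, log2 fold change -2.36, adjusted p = 0.000229). Kcnip2, the subunit of the cardiac transient outward potassium channel, averaged 159 ± 49.5 in STZ and 646 ± 17.9 in Control, with a log2 fold change of -2.07 with all reads and -0.95 with reads that fit at least 1 isoform. Por, the reductase that serves cytochrome P450 enzymes, averaged 205 ± 30.8 in STZ and 53.0 ± 4.46 in Control. Tspan4 was higher by a log2 fold change of 1.10 with all reads and 0.56 with reads that fit at least 1 isoform, and Hsp90aa1 was lower by -0.91 but missed the threshold with median-of-ratios scaling (limma, adjusted p = 0.0745). None of 12 glucocorticoid-induced genes had an event.

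The genes whose pattern over the 5 libraries was most like each clock gene were found by the root mean square difference of log2 event reads, each gene centred on its Control mean, among 3859 genes. For Arntl they were Apod, Slc12a8 and Zfp703, with differences of 0.381, 0.396 and 0.420. For Dbp they were Zscan22, Plpp7 and Thap2, at 0.261, 0.264 and 0.280. For Tef they were Vwa5a, Cpeb3 and Dglucy, at 0.0997, 0.110 and 0.141. For Nr1d1, Hlf and Ciart the nearest were Zfr, Pacs2 and Ccbe1, at 0.0568, 0.167 and 0.310. Apod had 137, 88.6 and 116 RPM in STZ, against 18.9 and 15.8 in Control.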

How the data were processed

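Left ventricle RNA was sequenced on an Illumina HiSeq, per the labels. The submitters' processing notes name CASAVA 1.8.2, TopHat and the mm9 build. The authors compared libraries in pairs with MISO, per the file headers, in 6 tables of cassette exons. The authors gave Psi as a fraction rounded to 2 decimals and the Bayes factor as a ratio, and deposited read classes as text and differences of Psi as signed values (both of the unit other). No source here names the MISO version or event set, and 36 further columns of library values were not used.

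The library codes match no sample title. Each table sets 1 of 2 codes against 1 of 3, and group sizes alone made the pair Control and the trio STZ. STZ A, B and C and Control A and B follow the numbers in the codes. The codes also form 2 naming series that split as the groups do, so series and treatment cannot be told apart.

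Events were named by the symbol in the files (3665 events), by exon and intron lengths in GENCODE M21 (2584) or by the skipping junction (204), and 163 stayed unnamed. Symbol and length match gave the same gene in 97.6% of 3311 events. The Ciart event and the longer Dbp event were named by lengths.

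Event reads per gene were summed over the 4 classes and scaled to 1000000 event reads per library (RPM), and log2(value + 0.5) was tested with limma 3.58.1 (R 4.3.3), two-sided, with a trend, over 4145 genes with a mean of at least 20 event reads. Psi was clipped to 0.01 to 0.99, put on the logit scale and tested with limma over 4769 exons with at least 10 informative reads in every library. Benjamini-Hochberg adjustment was applied, with a threshold of 0.05. A fold change is on the log2(value + 0.5) scale, which understates changes of low genes. The limit for 0 reads is 3 reads of the total. The fits were tested on simulated data, with a spread that was set and not taken from each feature. The gene fit recovered 97 of 100 genes changed 2-fold and 100 of 100 changed 4-fold, with 10 false calls. Far fewer genes were changed there than passed in the data, so this recovery need not hold for the data. The Psi fit recovered 76 of 200 exons changed by 1.5 on the logit scale (38%), with 2 false calls, so an exon that did not pass may still differ. Named genes are the 6 clock genes, every listed clock gene or marker with an event, and the 3 genes most like each clock gene. The members and lists were chosen with earlier results of these data known. Scaling, pseudocount, filters, read classes, models and left-out libraries were varied.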

Additional observations from a re-analysis of the deposited data

How the results depend on the processing

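Arntl and Dbp kept their direction under all 20 alternatives, with log2 fold changes of 1.95 to 3.15 and -3.26 to -2.70. They stayed past the threshold wherever both Control libraries were kept. The alternatives with no filter on low values and with events in all 5 libraries repeated the main fit, so they add nothing to this. Tef did not: it was -0.05 with reads that fit at least 1 isoform, 0.060 with reads that tell the isoforms apart and 0.12 with reads that fit at least 1 isoform and median-of-ratios scaling, an alternative added after seeing the data, as was the count of reads that fit neither isoform. Nr1d1 turned to 0.17 with median-of-ratios scaling, 0.11 with upper-quartile scaling, 0.078 without STZ B, where leaving out 1 library gave -0.17 to 0.08, and 0.12 with both changes of reads and scaling. Its lowest value, -0.34, came with reads that tell the isoforms apart. Ciart turned to -0.36 without Control A and was 0.96 without Control B. On the logit scale, Psi of the Ciart exon turned to 0.55 without Control B and was -1.04 without Control A. Psi of the Tef exon was -0.70 without Control B. That value sets 0.02 in Control A against 0.01 in each STZ library, a single step of the rounding to 2 decimals. With Psi clipped at 0.05 the Tef difference was 0. The cause of the other changes was not tested.

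The 2283 genes called became 1338 to 2795 when 1 library was left out, the lowest without Control A and 1369 without Control B. The 713 exons called by Psi became 279 to 468 with 1 library left out, 1097 in the quasi-binomial model and 204 by a difference of at least 0.20 with 1 sign and a Bayes factor reaching 10 throughout the 6 tables of the authors. Of the clock genes' exons, 1 was called, 0 to 2 with 1 library left out, 2 in the quasi-binomial model and 0 by the authors' tables, where the Nr1d1 difference was 0.18 in 1 pair. Leaving out a Control library leaves a single one, whose spread is then assumed to be like that of STZ. No paired analysis was possible because the table columns carry no replicate numbers. The 14 to 92 reads that tell the isoforms apart limit what can be said of skipping in Arntl.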
